A study of Mus musculus with 16 samples.

Results

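Brain tissues were set against nonbrain tissues in the libraries captured with probes to long noncoding RNAs (lncRNAs), and the account below follows the noncoding and unannotated gene models rather than the coding ones. These were 8 of the 16 libraries of the series, 4 of brain tissues (olfactory bulb, cortex, cerebellum and whole brain) and 4 of nonbrain tissues (heart, kidney, liver and a library labelled testes), while the other 8 came from the same tissues after capture with probes to splice junctions. Rows of the deposited assembly were summed per gene model, and 28,798 of 59,205 models reached a mean normalized value of at least 10 over the 8 libraries. Of those tested, 16,201 were noncoding or had no gene in the GENCODE M21 annotation. All tissues came from adult C57BL/6J mice with no genetic change or treatment, brain RNA having been extracted with TRIzol and nonbrain RNA from tissue kept in RNAlater with RNeasy columns. Ribosomal RNA was depleted, stranded libraries were made, and the 4 brain libraries were hybridized to the probes in one pool and the 4 nonbrain libraries in another, with 16 cycles of PCR after capture for brain and 17 for nonbrain. The tissue group therefore cannot be told apart from the extraction method, the hybridization pool or the cycle number. Each tissue was 1 library, so the p-values measure the spread between tissues and not between mice. Whole brain contains the other brain regions, whereas the nonbrain organs are separate. The brain libraries are therefore not 4 separate tissues, and the spread within brain is not alike in kind to that within nonbrain, in every test below.

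Long noncoding RNAs are transcripts with no long open reading frame. Many are spliced and polyadenylated like messenger RNA, many are kept in the nucleus, and as a class they are scarcer and more restricted to particular tissues than messenger RNA, with brain among the tissues richest in them. Some regulate genes beside them, as imprinted lncRNAs do, and some are precursors from which microRNAs or small nucleolar RNAs are cut. In capture sequencing, oligonucleotide probes pull chosen transcripts out of a library before it is sequenced, so a value depends on the probes as well as on the RNA, and levels were compared between tissues for a given model rather than between models. In whole tissue, more cells of a type and more RNA per cell cannot be told apart.

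The libraries held 8,930,236 fragments (heart) to 21,113,109 (the library labelled testes), of which 9.02% to 45.6% were spike-in RNA, and 1 fragment was worth a normalized value of 1.14 to 4.77. Markers fitted the labels with one exception. All 6 tested neuron markers, all 4 astrocyte markers and 3 of 4 oligodendrocyte markers were higher in brain, and 2 of 5 heart, 3 of 4 tested kidney and 4 of 5 liver markers were lower. In limma-voom on fragments, 6 neuron, 4 astrocyte and 4 oligodendrocyte markers were called, but 0 of the heart, kidney or liver markers. In the library labelled testes, the germ cell gene Prm1 had a value of 10.3 against 11.2 to 35.2 in brain, Tnp1, Ddx4 and Dazl had no fragment, and 8 keratinocyte markers summed to 9231 against 224 to 1041 elsewhere, so its values are given as those of the library labelled testes. Of the markers of other cell types, 1 of 4 macrophage genes (Cx3cr1) was higher in brain in limma, and limma-voom called 0 of these 4. At an adjusted p under 0.05, 0 of 4 endothelial and 0 of 5 red blood cell genes passed the test in limma. At an unadjusted p under 0.05 there were 1 (Pecam1) and 0, and limma-voom called 0 of each. Whole brain stood apart from the other brain libraries. Unannotated models took 11.2% of its fragments without spike-ins, against 31.0% in cerebellum, 25.6% in cortex and 34.4% in olfactory bulb, and 11.997% to 14.7% in the nonbrain libraries. Whole brain also had 11 cycles of PCR before capture, against 10 in the other brain libraries, and 31.9% spike-in RNA, against 9.02% to 16.3%. Its tissue cannot be told apart from these differences of the library.

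With values as deposited, more noncoding RNA genes were higher in brain than lower in each class counted. Among GENCODE lncRNA genes, 792 of 3099 tested (25.6%) were higher in brain and 215 (6.94%) were lower (limma on log2(value + 1), Benjamini-Hochberg adjusted p under 0.05). Over all gene models the shares were 21.9% higher and 5.25% lower, 27.1% in all, and for 29.5% the 4 brain values did not overlap the 4 nonbrain ones. Among the 11,525 models with no GENCODE gene, 2966 (25.7%) were higher and 312 (2.71%) lower, and among 1503 TEC models, GENCODE's class for loci still in need of experimental support, 470 (31.3%) were higher and 38 (2.53%) lower. Coding genes gave 2011 higher (16.3%) and 924 lower (7.48%) of 12,358. Small RNA models gave 10 higher and 2 lower of 55, and pseudogenes 43 higher and 17 lower of 239.

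The balance between higher and lower depended on the scaling. As deposited, the median difference of all tested models was 0.49 on the log2 scale in favour of brain, and after quantile normalization it was -0.43. Over all models the quantile-normalized values gave 15.5% higher and 16.1% lower, 31.6% in all. The lncRNA calls became 536 higher and 536 lower, the TEC calls 384 and 162, and the calls without a GENCODE gene 2212 and 1130, whereas coding genes turned to 1284 higher and 2733 lower. Under every scaling tried, 534 lncRNA genes were higher and 191 lower, and 2208 unannotated models were higher and 293 lower. The lower calls also rested on single libraries: without cortex, 124 lncRNA genes were lower, and unannotated models lower in brain numbered 197 without cerebellum and 201 without cortex.

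**Figure D1:**
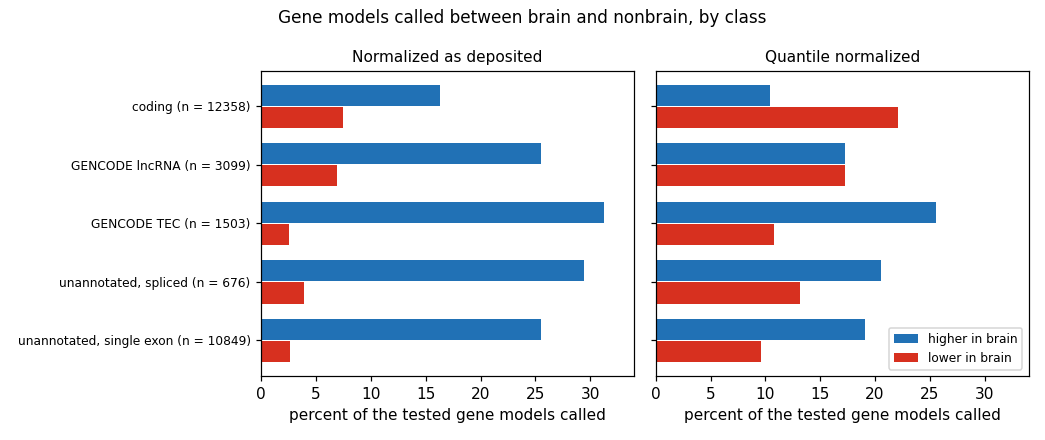
Percent of tested gene models (horizontal axis) called higher (blue bars) or lower (red bars) in brain by class, with values as deposited (left) and after quantile normalization (right; limma, adjusted p under 0.05). As deposited, 31.3% of TEC, 29.4% of spliced unannotated, 25.5% of single-exon unannotated and 25.6% of lncRNA models were higher, against 16.3% of coding models, and after quantile normalization the 2 lncRNA bars are of equal length.

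With values as deposited, the shares varied with the place of the model, beside 21.9% higher and 5.25% lower over all gene models. Of 1391 lincRNA genes, those lying between coding genes, 431 (31.0%) were higher in brain and 96 lower, and of 1015 antisense lncRNA genes 223 (22.0%) were higher and 72 lower. After quantile normalization the lincRNA counts were 285 higher and 257 lower, and the antisense ones 157 and 181. Spliced lncRNA genes gave 653 higher and 194 lower of 2542 (452 and 464 after quantile normalization). Single-exon ones gave 139 and 21 of 557 (84 and 72 after it). Among unannotated models, 96 of 282 spliced intergenic ones (34.04%) were higher and 11 lower (61 and 35 after quantile normalization). Of 46 spliced ones in an intron of a gene on the opposite strand, 17 were higher (37.0%) and 1 lower (13 and 8 after it). The most numerous group was made of single-exon models inside an intron of a gene on the same strand. Here 1930 of 7859 (24.6%) were higher and 190 (2.42%) lower, and after quantile normalization 1563 and 700. A fragment of such a model cannot be told apart from one of its host's unspliced precursor.

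More gene models of every class counted were detected in the brain libraries, noncoding ones among them. With detection set at 3 fragments, 3167, 3056, 3220 and 3271 lncRNA genes were detected in whole brain, cerebellum, cortex and olfactory bulb, against 2236, 2556, 2077 and 2836 in heart, kidney, liver and the library labelled testes. Unannotated models detected numbered 11,223 to 12,793 in brain and 7870 to 9978 in nonbrain libraries, and all gene models 29,029 to 30,752 and 21,213 to 27,141. None of these sets of counts overlapped between the groups (exact permutation test, 2-sided, p = 0.0286 for each, the smallest that 4 against 4 can give). Depth without spike-ins also differed, at 12,464,268 to 17,692,700 fragments in brain and 6,463,678 to 15,587,287 in nonbrain libraries. Thinned to the fragments of heart, the shallowest library, a step chosen after the data were seen, the expected number of lncRNA genes detected was 2634 to 2855 in brain and 1875 to 2458 in nonbrain libraries, and that of unannotated models 10,237 to 11,813 and 7262 to 9178 (exact permutation p = 0.0286 for each). The unannotated models were assembled from reads that included those of these libraries. Whole brain contains the other brain regions, whereas the nonbrain organs are separate. A model assembled from a brain region can therefore be found again in whole brain, and thinning does not remove this. These p-values do not test models chosen apart from these data.

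The share of fragments from lncRNA genes was 16.7% ± 2.03 in brain and 16.2% ± 3.02 in nonbrain libraries (SD, n = 4 each, exact permutation p = 0.829). These shares include Malat1, which is listed at 0 in 4 of the libraries, as described further on. Without Malat1 and the 3 other models listed at 0 in some libraries and at high values in others, they were 16.3% ± 0.573 and 14.3% ± 1.35, a difference of 1.94 percentage points in place of 0.553 (exact permutation p = 0.0571). The unannotated share was 25.5% ± 10.2 against 13.5% ± 1.28 (exact permutation p = 0.143), and without whole brain the difference was 16.8 percentage points (exact permutation p = 0.0286, the smallest that 3 against 4 can give). Whole brain was the brain library with the lowest share. Under the 9 other alternatives the difference was 9.08 to 12.97 percentage points, and the permutation p was not under 0.05.

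The brain tissue in which a model was highest differed between classes. Of the 2966 unannotated models higher in brain, 1298 (43.8%) had their highest value in olfactory bulb, 827 (27.9%) in cerebellum, 648 (21.8%) in cortex and 193 (6.51%) in whole brain, which was the lowest brain library for 1918 (64.7%). Of the 792 lncRNA genes higher in brain, 274 (34.6%) were highest in whole brain and 203 (25.6%) in olfactory bulb. Over all 6298 models higher in brain, 32.4% were highest in olfactory bulb, 23.6% in cerebellum, 20.3% in cortex and 23.7% in whole brain. Whole brain was the lowest brain library for 41.9% of these. Of the 215 lncRNA genes lower in brain, 71 (33.0%) were highest in liver, 54 in kidney, 46 in the library labelled testes and 44 in heart.

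The 3 listed lncRNAs of the imprinted Dlk1-Dio3 region, expressed from the maternal chromosome, were higher in brain. Meg3, the first of them (chr12:109540836-109571726 on the plus strand of GRCm38, 11 exons), had values of 41,898 in whole brain, 154,297 in cerebellum, 327,939 in cortex and 242,112 in olfactory bulb, and of 1951 in heart, 196 in kidney, 193 in liver and 1404 in the library labelled testes. The lowest brain value was over the highest nonbrain one, and the difference was 8.05 ± 0.99 (log2, SE, limma adjusted p = 0.000308, a 205-fold ratio of means). Rian, which follows it and carries small nucleolar RNAs, had 160,167, 187,603, 258,657 and 189,848 in the brain libraries in the same order and 7403, 769, 921 and 4364 in the nonbrain ones. Its difference was 6.48 (adjusted p = 0.00029, 59.2-fold). Mirg, the microRNA-bearing end of the region, was higher by 5.47 (adjusted p = 0.000459). In all of these the heart library held the most among nonbrain tissues.

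Of the 6 other imprinted lncRNAs on the list, 3 were higher and none was lower, with a median difference of 1.44 beside 0.49 over all tested models (3.43 over all 9 on the list). Snhg14, the long host of the Snord115 and Snord116 small nucleolar RNAs that runs towards Ube3a and is joined to coding exons in this assembly, was higher by 4.52 (adjusted p = 0.00122). Peg13, inside Trappc9, had 70,603 to 141,970 in brain and 8547 to 56,359 in nonbrain libraries, a difference of 2.42 (adjusted p = 0.0278), and Nespas, antisense to Gnas, was higher by 3.43 (adjusted p = 0.0183). The call of Peg13 was lost without any 1 of whole brain, cortex, olfactory bulb, kidney, liver or the library labelled testes, and that of Nespas without olfactory bulb or after quantile normalization (adjusted p = 0.0617). Kcnq1ot1 and Airn, which silence neighbours in cis on the paternal chromosome, differed by 0.26 (adjusted p = 0.802) and 0.46 (adjusted p = 0.808). H19, the maternally expressed partner of Igf2, had 13,595 in heart and 42.1 to 450 in the other 7 libraries (difference -1.12, adjusted p = 0.658).

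Neat1, the scaffold of nuclear paraspeckles, went the other way. Its values were 10,216 in whole brain, 25,355 in cerebellum, 21,764 in cortex and 18,927 in olfactory bulb, and 257,764 in heart, 298,570 in kidney, 609,094 in liver and 507,474 in the library labelled testes. The groups were far apart and the difference was -4.44 ± 0.54 (SE, adjusted p = 0.000292, 21.9-fold lower). It was the only one lower of the 8 nuclear or ubiquitous lncRNAs tested besides Malat1, whose median difference was -0.29. Ftx, from the X inactivation centre, was the only one higher (2.02, adjusted p = 0.0339), a call lost without any 1 of cerebellum, cortex, olfactory bulb, heart or the library labelled testes. Tug1 had 64,165 to 119,114 in brain and 61,690 to 109,086 in nonbrain libraries, a difference of -0.16 (adjusted p = 0.842) that became 0.54 after quantile normalization. Jpx, an activator of Xist, differed by 1.10 (adjusted p = 0.107), with no overlap between its groups. Malat1, an RNA of nuclear speckles, was listed at 0 in cerebellum, olfactory bulb, kidney and the library labelled testes and at 314,651, 963,166, 1,734,482 and 1,110,489 in whole brain, cortex, heart and liver. It had 806 to 5690 fragments in all 8 junction libraries, so its lncRNA values were not compared and it was left out of the counts and median just given.

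**Figure D2:**
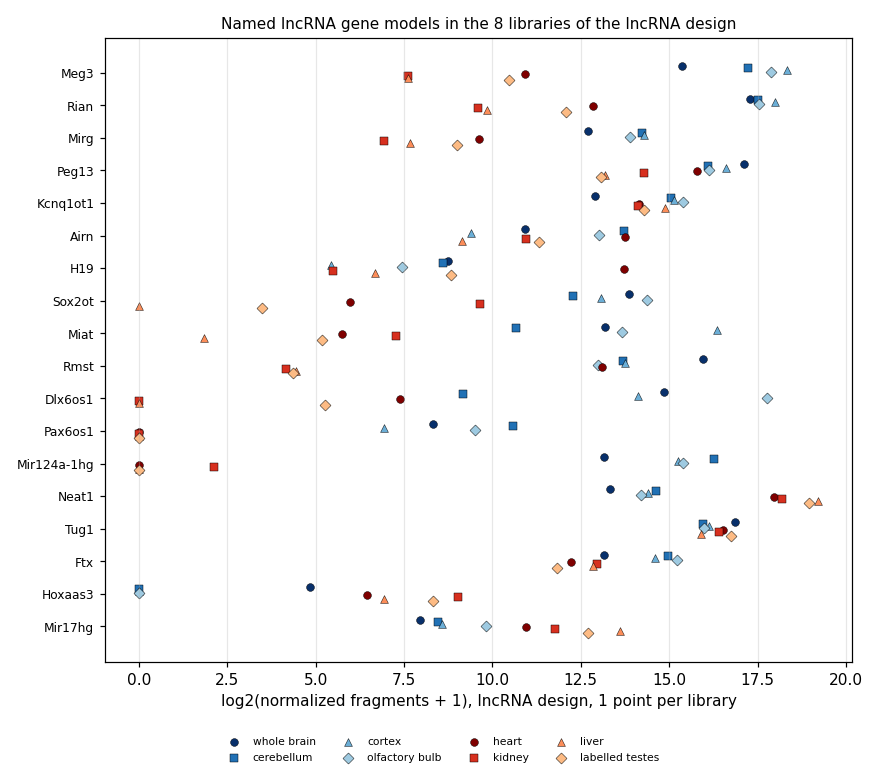
Normalized value of 18 named lncRNAs in each library, as log2(value + 1), with brain and nonbrain libraries in different colours. Meg3, Rian and Mirg are over all nonbrain libraries in every brain library, Neat1 and Mir17hg are under all of them, and Tug1, Kcnq1ot1, Airn and H19 overlap.

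Neural lncRNAs were nearly all higher in brain. Of 18 on the list, chosen largely because they lie beside genes for neural transcription factors or are known from neurons, 15 were tested, 13 were higher, none was lower, 2 were not called, 1 was under the floor and 2 had no model, and the median difference was 7.59. In limma-voom on fragments 10 of the 15 were called. Sox2ot, which spans the stem cell factor gene Sox2, had 14,976, 5007, 8600 and 21,365 across whole brain, cerebellum, cortex and then olfactory bulb, and 62.0, 806, 0 and 10.3 in heart, kidney, liver and the library labelled testes. The difference was 8.62 ± 1.73 (SE, adjusted p = 0.00495, 56.9-fold). Miat, a nuclear RNA of neurons, had 84,051 in cortex, 1630 in cerebellum and 2.57 to 154 outside the brain (difference 8.46, adjusted p = 0.00159). Olfactory bulb was highest for Sox2ot and cortex for Miat.

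Several lncRNAs of the list lie opposite to genes of neural transcription factors. Dlx6os1, beside the interneuron genes Dlx5 and Dlx6, had 223,948 in olfactory bulb, 572 in cerebellum, 17,608 in cortex and 29,593 in whole brain, and 167, 0, 0 and 37.6 in the nonbrain libraries (difference 10.8, adjusted p = 0.00448). With fragments under 1% of the highest library of a pool set to 0, as described for nonbrain models further on, its adjusted p was 0.123. Pax6os1 was highest in cerebellum (1525, against 121 to 728 in the other brain libraries) and had no fragment outside the brain, so it was at least 88.2-fold higher, taking 3 fragments per library as the floor. Six3os1 and Otx2os1 also had no nonbrain fragment and were at least 38.8-fold and 17.6-fold higher. Both lost their calls after quantile normalization (adjusted p = 0.0952 and 0.0505) and in limma-voom on fragments (0.121 and 0.0652). Rmst, required for neuronal differentiation, had 8143 to 63,496 in brain but 8696 in heart, so its groups overlapped, although it passed the test (7.59, adjusted p = 0.0148, lost without whole brain). Pantr2 overlapped through kidney (904 against 742 to 1165 in brain), and its call (adjusted p = 0.0282) was lost without any 1 library but kidney.

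Hosts of microRNAs made up 4 of the 10 GENCODE noncoding models with the largest difference in favour of brain among those called without overlap. MicroRNAs are cut as hairpins from longer host RNAs and trimmed to about the length printed here, and their seed, bases 2 to 8, pairs with target messenger RNAs. These libraries measured host RNA and not mature microRNAs. Hosts were matched by position and strand to the RefSeq hairpins on GRCm38.p6, of which 133 of 1005 lay in 76 tested noncoding or unannotated models. Of these models, 30 (39.5%, with 71 hairpins) were higher in brain, 7 (9.21%, with 12 hairpins) were lower and 39 were not called, beside 21.9% higher and 5.25% lower over all gene models and 26.2% and 3.52% over the 16,201 noncoding or unannotated ones. The mature RefSeq sequences carried by the hosts described next are shown 5′ to 3′, seeds in capitals, to let a reader see which seeds stood on each side.
miR-9-5p: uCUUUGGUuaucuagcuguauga
miR-9-3p: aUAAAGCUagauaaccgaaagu
miR-7b-5p: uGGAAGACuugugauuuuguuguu
miR-138-5p: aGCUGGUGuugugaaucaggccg
miR-129-5p: cUUUUUGCggucugggcuugc
miR-219a-5p: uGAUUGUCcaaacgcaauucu
miR-181a-5p: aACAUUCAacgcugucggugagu
miR-181b-5p: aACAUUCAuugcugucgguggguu
miR-344-5p: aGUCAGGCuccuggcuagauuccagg
miR-344b-5p: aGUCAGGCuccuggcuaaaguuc
miR-344c-5p: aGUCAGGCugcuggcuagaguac
miR-344g-5p: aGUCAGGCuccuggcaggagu
miR-379-3p: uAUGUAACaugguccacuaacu
miR-411-3p: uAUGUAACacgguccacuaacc
miR-134-5p: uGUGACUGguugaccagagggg
miR-17-5p: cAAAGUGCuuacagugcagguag
miR-20a-5p: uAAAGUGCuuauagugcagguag
miR-19a-3p: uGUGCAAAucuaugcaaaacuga
miR-19b-3p: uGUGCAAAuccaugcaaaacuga
miR-92a-3p: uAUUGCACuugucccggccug
miR-223-3p: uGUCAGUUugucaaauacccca
miR-142a-3p: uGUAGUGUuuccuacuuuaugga
miR-146a-5p: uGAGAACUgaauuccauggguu
miR-205-5p: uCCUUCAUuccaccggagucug
miR-141-3p: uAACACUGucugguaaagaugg

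Mir124a-1hg, host of miR-124, a microRNA that marks neurons, had the largest difference of the tested GENCODE noncoding genes. It had 9161 in whole brain, 79,420 in cerebellum, 39,309 in cortex and 42,688 in olfactory bulb, and outside the brain only 3.38 in kidney, the worth of 2 fragments. The difference was 14.5 ± 0.80 (SE, adjusted p = 9.83e-06). All 3 loci of miR-9, which acts in neural progenitors, were higher in brain. Mir9-3hg had 6015, 5717, 7080 and 12,115 in whole brain, cerebellum, cortex and olfactory bulb, with no nonbrain fragment, which makes it at least 1013-fold higher (adjusted p = 3.73e-06). Gm3764, the host of miR-9-1, was higher by 12.16 and C130071C03Rik, the host of miR-9-2, by 10.61, the latter with 128 in kidney and 71.6 in heart.

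Other single hosts followed the same split. AC026385.1, with miR-7b, had 937 to 1872 in brain and no nonbrain fragment (10.53, adjusted p = 5.38e-06), and the Mir219a-2 model, with a microRNA of oligodendrocyte maturation, had 709 to 1319 in brain and 1 fragment in the library labelled testes (9.67). The host of miR-138-1, 9530059O14Rik, ran from 4770 in whole brain to 28,565 in olfactory bulb and reached 189 in the library labelled testes (8.26, adjusted p = 0.00028). Both loci of miR-129 were higher, Gm3294 (miR-129-1) by 7.26 and a Mir670hg model (miR-129-2) by 5.18. The models over miR-181a-1 and miR-181b-1, which share a seed, were higher by 3.41 and 4.04, with olfactory bulb highest in both. Ftx and 3110039I08Rik, the latter with miR-100, let-7a-2 and miR-125b-1, showed the smallest calls in this direction, 2.02 and 2.43, and the second was lost without any 1 of whole brain, cortex, olfactory bulb or kidney.

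Hosts lying in clusters mostly shared a direction. In the Dlk1-Dio3 region, 5 of 6 tested hosts, with 35 hairpins, were higher, namely Meg3 itself (miR-770), an unannotated model with miR-434, miR-432 and miR-136 (6.04, adjusted p = 4.31e-05), Rian with 3 hairpins, B830012L14Rik with 11, among them miR-379 and miR-411 (4.98, adjusted p = 0.000657), and Mirg with 17, among them miR-134. The last of the 6, Dio3os, beside Dio3 and with miR-1247, had 37.9 to 193 in brain and 111 to 596 in nonbrain libraries and was not called (-1.44, adjusted p = 0.171). The mature miR-379-3p and miR-411-3p printed above share the seed AUGUAAC. The second cluster was that of miR-344 on chromosome 7, where all 4 tested models, with 10 hairpins, were higher. Among them were the A230057D06Rik models, one of which had 8339, 37,077, 16,595 and 30,429 in the brain libraries and 248, 82.8, 0 and 10.3 outside (9.82, adjusted p = 0.00119). The seed GUCAGGC recurs in 5 mature sequences of this cluster.

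Of the 7 hosts lower in brain, Mir17hg, the host of the growth-linked miR-17-92 cluster, carried 6 of the 12 hairpins. It had 245, 348, 378 and 902 in whole brain, cerebellum, cortex and olfactory bulb, against 1980, 3467, 12,406 and 6729 in heart, kidney, liver and the library labelled testes. No brain library reached the lowest nonbrain one (-3.56 ± 0.70 SE, adjusted p = 0.0046, 13.1-fold lower). F630028O10Rik, with the myeloid miR-223, was lower (-2.82, adjusted p = 0.0115), as were Mir142hg, with the blood cell miR-142 (-2.09, adjusted p = 0.0157, lost without cortex), and the Mir146 model (-2.33, adjusted p = 0.024, lost without any 1 of whole brain, cerebellum, kidney or liver). The Mir351 model, with miR-503, passed the test (-2.66, adjusted p = 0.0285) although cortex, with 68.8, was over the library labelled testes, with 67.2, and leaving out any 1 library but the last ended its call. The remaining hosts peaked in the library labelled testes. 4631405K08Rik, with miR-205, had 15,646 there, 86.2 to 206 in the other nonbrain libraries and 0 to 6.91 in brain (-6.99, adjusted p = 0.00928). Gm29008, with miR-141, had 1104 there and 23.9 to 125 in the other nonbrain libraries (-3.66, adjusted p = 0.0386). With fragments under 1% of the pool's highest library set to 0, their adjusted p were 0.711 and 0.355, and the keratinocyte markers were highest in the same library, their part in these values not having been tested.

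**Figure D3:**
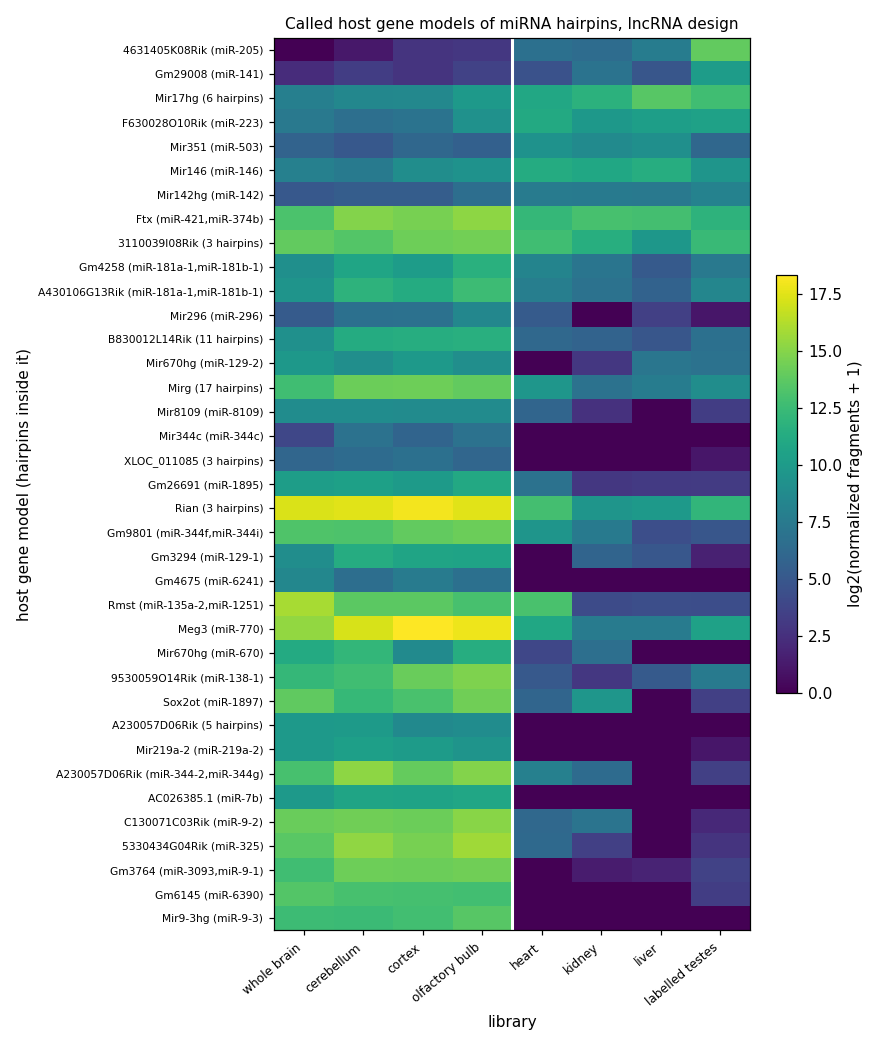
Heat map of log2(value + 1) for the 37 microRNA host models called in either direction, one row per model and one column per library. The 30 hosts higher in brain fill the left columns and the 7 lower ones the right columns, with the host of miR-205 strong in the library labelled testes alone.

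Other host lncRNAs changed less. None of 13 tested hosts of small nucleolar RNAs, growth-linked transcripts such as Gas5 and Snhg1, was called in limma (5 of 18 were not tested), and their median difference was -0.84. At an unadjusted p under 0.05 there were 2, Snhg15 and Epb41l4aos, and limma-voom called 1, Epb41l4aos (-1.59, adjusted p = 0.0779, against 0.0439 in limma-voom and 0.0446 after quantile normalization). Of organ lncRNAs, 4 of 9 tested were lower in brain and none was higher (median -3.11, 6 under the floor and 3 with no model). In limma-voom 3 of the 9 were called. Hoxaas3, in the HoxA cluster, had 85.9 to 522 in nonbrain libraries and 27.4, 0, 0 and 0 in brain (-6.47, adjusted p = 0.00276). Hoxb5os and Wt1os peaked in kidney with 1768 and 333 (-5.08 and -4.60, adjusted p = 0.0363 and 0.0269). Their calls were lost without any 1 of 5 libraries, namely the 4 brain libraries or liver for Hoxb5os, and whole brain, cortex, olfactory bulb, heart or kidney for Wt1os. Carmn, a smooth and heart muscle lncRNA, had 8577 in heart (-2.60, adjusted p = 0.0285) and lost its call without any 1 brain library or kidney.

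Among called noncoding genes whose groups did not overlap, the 10 with the largest difference in favour of brain ranged from 12.16 to 14.5 on the log2 scale. Besides the 4 microRNA hosts, which were Mir124a-1hg, Mir9-3hg, Gm3764 and Gm6145 (miR-6390, 12.19), they included Gm14204, which starts head to head with Slc32a1, the gene of the vesicular GABA transporter. Gm14204 had 6234, 4629, 2638 and 15,264 in whole brain, cerebellum, cortex and olfactory bulb, with no nonbrain fragment (12.5 ± 0.60 SE, adjusted p = 7.06e-06), while Slc32a1 had 28.1 to 76.3 in brain and none outside. Olfactory bulb was highest for the lncRNA and whole brain for the coding gene. Coding genes were not the targets of the lncRNA probes, so a low coding value here and below does not show low messenger RNA. C230004F18Rik, the RefSeq gene Cdr1os, had 3272 to 16,033 in brain and 2 fragments in heart (12.4, adjusted p = 2.55e-05), and AC156546.1, 340 nt from Jakmip2, had 10,152 to 14,697 in brain. Gm9866 (1553 to 21,032) and A230006K03Rik (557 to 15,366) had no nonbrain fragment either, and lay 173,533 and 119,023 nt from the nearest coding gene. Gm43889, a TEC model over Cntnap2, the gene of an axonal adhesion protein, completed the 10.

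The 10 noncoding genes with the largest difference against brain, taken in the same way, were models of liver, kidney or heart. BC024386 (chr7:140906051-140907846, plus strand) had 0, 0, 0 and 1.38 in brain and 258 in heart, 12,678 in kidney, 42,325 in liver and 117 in the library labelled testes (-10.7 ± 1.74 SE, adjusted p = 0.00161). Gm16559 had 978, 8822, 25,124 and 6499 in the nonbrain libraries in that order and 2.81 to 17.1 in brain (-9.63, adjusted p = 0.000114). It overlaps Adh1, an alcohol dehydrogenase gene with 174,639 in liver, on the other strand, and since the strand setting of the counting is not given in the sources used here, reads of such pairs may not be separated. Gm15883 overlaps the cytochrome P450 gene Cyp2f2 in the same way. In other pairs the tissues differed: 0610031O16Rik peaked in liver (12,293) while Adh7 opposite to it peaked in the library labelled testes (121), and Gm19950 had 19,515 in kidney and 142 in liver while Acsm1, a medium-chain acyl-CoA synthetase gene opposite to it, had 150 and 682. Hand2os1 had 23,412 in heart and none in brain, and Hand2, the heart transcription factor gene 124 nt away, had no fragment in any of the 8 libraries. Hand2 is coding and was not a target of these probes, so this does not show that it was silent. 1810008I18Rik had 48,990 in liver and 1010001N08Rik, beside Gata6, 7022 in heart.

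Part of this group of calls rested on very low signal in 3 of the 4 nonbrain libraries. Models with at least 1000 fragments in one nonbrain library, under 2% of that in each other nonbrain library and no more than 2 in the brain pool were summed. By this choice they were weak in the other libraries, and their sums there were 0.19% to 0.561% of the 63,043 to 563,160 fragments of the highest library. For 22 of the 215 lncRNA genes lower in brain (10.2%) and 7 of the 312 unannotated models (2.24%), the other 3 nonbrain libraries were all under 1% of the highest, whereas for no model higher in brain were the other 3 brain libraries all under 1%. Whole brain contains the other brain regions, whereas the nonbrain organs are separate, so the groups are not alike in this count. With fragments under 1% of the highest library of the same pool set to 0, a step chosen after the data were seen, 148 of the 215 lncRNA genes lower in brain were still called and 67 were not, and 273 of the 312 unannotated models were. Of the 792 higher lncRNA genes 750 were still called. Of the 10 noncoding genes with the largest difference against brain 2 were, namely Gm16559 (adjusted p = 0.000158) and 1010001N08Rik (0.000542), whereas BC024386 had an adjusted p of 0.184, Hand2os1 0.18, Gm19950 0.426 and 1810008I18Rik 0.56. In limma-voom on the fragments, 3 of these 10 genes were called, Gm15883 besides the same pair, and the other 7 had adjusted p of 0.0575 to 0.161. Whether the low signal came from the tissue or from other libraries of the pool was not tested.

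**Figure D4:**
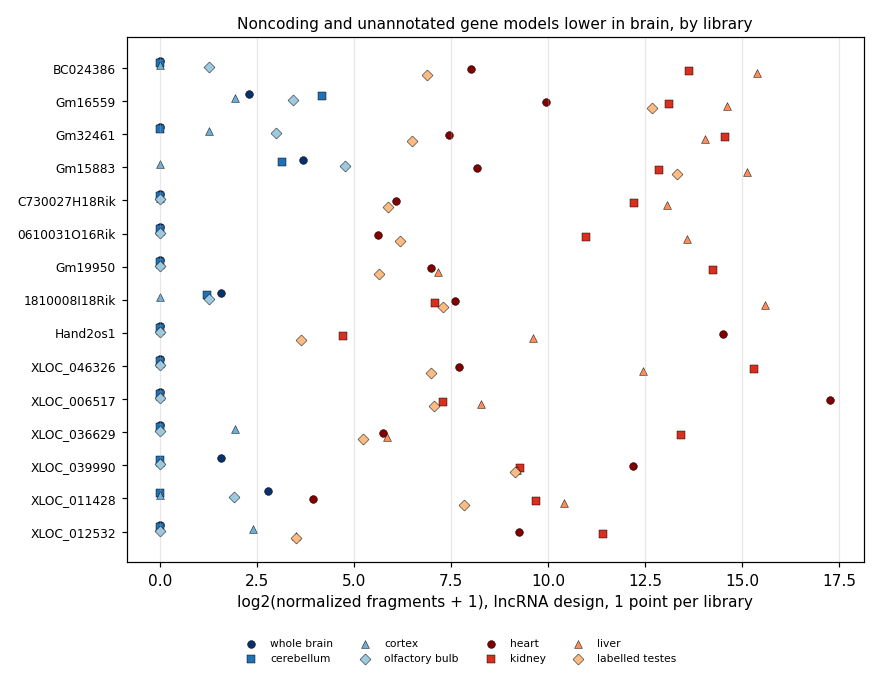
Normalized values, as log2(value + 1), of 15 noncoding or unannotated models lower in brain, by library. Most have their highest values in kidney, liver or heart and much lower ones in the other nonbrain libraries. The brain libraries are at or near 0 for most models, and Gm16559 and XLOC_039990 are high in all 4 nonbrain libraries. That every brain library is lower than every nonbrain one for all 15 follows from the choice of models whose groups do not overlap.

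Models with no GENCODE gene gave differences as large as those of annotated lncRNAs. They are called here by the numbers of the deposited assembly, with coordinates on GRCm38. XLOC_054528 (chr9:112162859-112165369, minus strand, spliced), inside an intron of Arpp21, a neuronal gene on the same strand, had 865, 3903, 8062 and 14,688 in whole brain, cerebellum, cortex and olfactory bulb, with no nonbrain fragment (12.1 ± 0.83 SE, adjusted p = 2.01e-05, at least 902-fold). Arpp21 itself was highest in cortex (1152) and had no nonbrain fragment. XLOC_021703 (chr16:94745047-94748565, minus strand, single exon), 71 nt from the potassium channel gene Kcnj6, had 11,959, 5231, 13,245 and 7806 (13.1, adjusted p = 3.73e-06). Its level order, cortex over whole brain over olfactory bulb over cerebellum, was not that of Kcnj6, which was highest in cerebellum (61.7). That is a low value for a coding gene these probes did not target.

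The next models lay in or beside Nrg1, Nrg3, Slitrk5 and Kcnip4. XLOC_050730, a spliced model in the span of Nrg1, had 4412, 263, 7925 and 4061 in brain (11.3, adjusted p = 5.3e-05) while the Nrg1 coding model itself stayed under the floor at 0 to 31.3. XLOC_016557, in Nrg3, had 1573 to 14,213 and its coding model 1.31 to 7.83. Neither coding gene was a target of these probes, so these values do not rank it against the unannotated model. XLOC_017405, 8 exons long and starting 362 nt from Slitrk5, a gene for a synaptic adhesion protein, had 113 in cerebellum against 3403 to 4007 in the other brain libraries (10.6, adjusted p = 0.000119). XLOC_040360, antisense to Gm19932 and inside Kcnip4, had 15,828 in cerebellum (11.3). None of these 4 models had more than 2 nonbrain fragments in any library.

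In the other direction, unannotated models lay at Acsm1. XLOC_046326 (chr7:119611180-119631180, plus strand, spliced) had 205, 40,518, 5579 and 125 in heart, kidney, liver and the library labelled testes and none in brain (-10.6 ± 1.65 SE, adjusted p = 0.00122), and XLOC_046325, of a single exon just before it, had 34,828 in kidney. After the pool step their adjusted p were 0.168 and 0.188, and in limma-voom 0.0578 and 0.0598. Both shared with Gm19950 a kidney maximum that the Acsm1 coding model, not a target of these probes, did not have. XLOC_006517 (chr11:31545808-31549699, plus strand), between genes, had 156,933 in heart and 132 to 306 in the other nonbrain libraries (-9.96, adjusted p = 0.00509, and 0.425 after the pool step). XLOC_039990 (chr5:17846451-17847464, minus strand), in an intron of the fatty acid transporter gene Cd36, was high in every nonbrain tissue with 4656, 618, 589 and 565 against 1 fragment in brain (-9.56 ± 0.80 SE, adjusted p = 4.38e-05). The Cd36 coding model had 2127, 657, 219 and 252, heart being highest for both.

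The direction of the nearest coding genes was counted for the called noncoding models. For lncRNA genes higher in brain with a tested coding gene within 10 kb, that gene was also higher in 264 of 399 (66.2%), beside 397 of 1837 (21.6%) for all tested lncRNA genes. For those lower in brain it was also lower in 58 of 117 (49.6%), beside 153 of 1837 (8.33%). Unannotated models outside sense introns gave 277 of 490 (56.5%) beside 17.8%, and 25 of 66 (37.9%) beside 6.39%. For models in a sense intron the host was higher in 1304 of 1556 (83.8%) beside 28.1% of all such models, and lower in 67 of 144 (46.5%) beside 3.48%. These are counts and were given no test, because overlapping models share reads.

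Promoters were read from the RefSeq table (GRCm38.p6, 250 nt before to 50 nt after the start) for models starting within 500 nt of a RefSeq gene on the same strand, 1048 lncRNA genes and 261 models without a GENCODE gene. The promoters of Meg3, which starts 160 nt from the RefSeq start, and Mir9-3hg, both higher in brain, and that of BC024386, lower in brain, are shown because these genes open the results on either side. Capitals mark matches on either strand to the TATA box letters TATAAA, or to CAGATG (an E-box of neural factors), TGACGTCA (the cyclic AMP response element), TTCAGCACC (the core of the REST element) or the palindromic HNF1 element.
Meg3, chr12:109540746-109541045, plus strand: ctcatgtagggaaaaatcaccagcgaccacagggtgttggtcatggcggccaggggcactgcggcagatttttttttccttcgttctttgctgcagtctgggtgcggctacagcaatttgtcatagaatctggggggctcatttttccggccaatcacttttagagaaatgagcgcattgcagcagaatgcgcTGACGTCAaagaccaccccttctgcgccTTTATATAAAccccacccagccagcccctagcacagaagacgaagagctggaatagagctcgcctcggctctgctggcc
Mir9-3hg, chr7:79499776-79500075, plus strand: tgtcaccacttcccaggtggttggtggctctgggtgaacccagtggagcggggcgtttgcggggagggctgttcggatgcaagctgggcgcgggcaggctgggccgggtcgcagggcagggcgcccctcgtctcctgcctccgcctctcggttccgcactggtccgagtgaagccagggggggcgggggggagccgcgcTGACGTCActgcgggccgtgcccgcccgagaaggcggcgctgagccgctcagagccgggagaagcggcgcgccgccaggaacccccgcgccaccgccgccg
BC024386, chr7:140905771-140906070, plus strand: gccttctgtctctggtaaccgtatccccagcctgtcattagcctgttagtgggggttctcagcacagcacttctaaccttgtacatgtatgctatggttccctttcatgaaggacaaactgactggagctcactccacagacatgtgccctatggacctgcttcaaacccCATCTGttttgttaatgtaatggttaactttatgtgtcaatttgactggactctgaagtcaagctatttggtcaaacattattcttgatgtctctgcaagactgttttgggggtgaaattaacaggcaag
The promoter of Mir9-3hg held 35 CpG dinucleotides, that of Meg3 13 and that of BC024386 1, beside a median of 6 in 263 lncRNA promoters higher in brain, 7 in 90 lower ones and 8 in all 1048. TGACGTCA stood in 2.66% of the higher, 4.44% of the lower and 2.29% of all lncRNA promoters, and in 1.79% of all 32,851 promoters of the table. TATAAA stood in 11.0%, 2.22% and 9.92% of the same lncRNA groups (13.6% of the table) and CAGATG in 19.01%, 21.1% and 17.7% (17.2% of the table). CAGATG was also in 13 of 43 promoters (30.2%) of unannotated models higher in brain, none of 14 lower ones and 15.7% of all 261. TTCAGCACC stood in 0.371% of the table's promoters and in none of the called lncRNA promoters, and the HNF1 element in 3 promoters of the table and in none of these.

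The junction design saw much of this poorly. Its probes flank splice sites of RefSeq genes, whereas the lncRNA probes tile known and predicted noncoding transcripts, single-exon ones included. Of the 16,201 noncoding and unannotated models tested, 9359 (57.8%) had under 3 fragments in every junction library and 4205 (25.96%) had none at all, against 339 of 12,358 coding models (2.74%) under 3. The share was 27.8% for lncRNA genes and 65.8% for unannotated models. All of these models had passed the floor in the lncRNA libraries, so the shares do not count what the lncRNA design missed. Among models called here, 2121 of 4244 higher in brain (49.98%) and 323 of 570 lower (56.7%) had under 3 junction fragments in every library. The median called-higher noncoding or unannotated model had a mean of 97.1 fragments per lncRNA library and 0.5 per junction library, while for coding models called higher the values were 46.6 and 492.5.

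**Figure D5:**
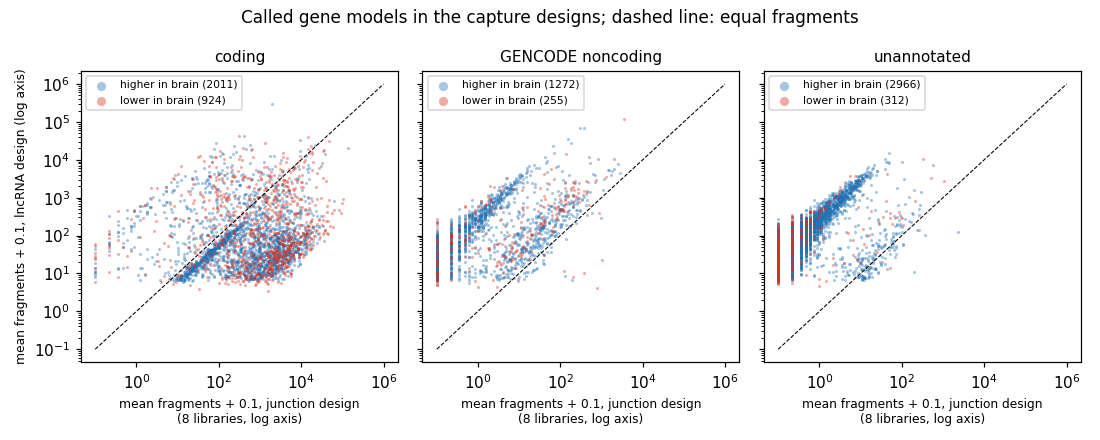
Mean fragments per library, plus 0.1, after junction capture (horizontal) and after lncRNA capture (vertical), on log axes, for coding, GENCODE noncoding and unannotated models called higher (blue) or lower (red) in brain, with a dashed line of equal fragments. Most coding models lie under the line, with more junction fragments, most noncoding ones over it, and unannotated ones mostly at the left, the median of those higher in brain being 0.375 junction fragments against 87 with the lncRNA probes.

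The difference between brain and nonbrain was tested between the designs in 1 fit of the log2 ratio of lncRNA to junction value per tissue. By this test the brain minus nonbrain difference was more positive with the lncRNA probes for 4315 models (15% of all) and more negative for 887 (3.08%), of which 465 were called lower in brain with these probes. Among lncRNA genes the counts were 506 and 144, and among unannotated models 2555 and 295. A model with no junction fragments cannot show a difference in the junction libraries, so these counts include models that design did not cover, and the models called here had been chosen by one of the differences compared. The junction libraries on their own tested 17,235 models, with 21.6% higher and 15.9% lower. Among them were 1086 lncRNA genes and 1579 unannotated models. Of these, 868 and 319 were also tested with the lncRNA probes, which is 28.0% and 2.77% of the models tested with the lncRNA probes. The other 218 lncRNA genes and 1260 unannotated models were tested with the junction probes only, so each design missed models of the other.

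Models with no more than 2 fragments in any junction library illustrate what was added. XLOC_051715, a single-exon model in an intron of the progesterone receptor gene Pgr, had 2929, 1854, 3838 and 1436 in whole brain, cerebellum, cortex and olfactory bulb, against 23.9, 242, 7.72 and 141 outside (5.48 ± 1.02 SE, adjusted p = 0.00335), with 0 to 2 junction fragments. XLOC_020261, in Lsamp, the gene of a limbic adhesion protein, had 509 to 2041 and 1.14 to 81.1 (6.23, adjusted p = 0.00225), and XLOC_051652, 229 nt from Ccdc7b, 742 to 2025 and 12.9 to 262 (4.53, adjusted p = 0.00429). Calls near the threshold were less stable. XLOC_036553 (1.57, adjusted p = 0.0497) lost its call without any 1 library but whole brain and the library labelled testes, and 4930538E20Rik, antisense to the transcription factor gene Bcl11a, overlapped between the groups and lost its call (adjusted p = 0.0334) without any 1 library but cerebellum and the library labelled testes.

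Lower in brain and as poorly seen by the junction probes was 1810044D09Rik, a lncRNA of 2 exons with 297, 202, 163 and 175 in brain and 2290, 3266, 2288 and 950 in heart, kidney, liver and the library labelled testes (-3.30 ± 0.55 SE, adjusted p = 0.00173, 10.5-fold lower). XLOC_050750, in Rbpms, had 33.3 to 142 in brain and 252 to 3021 outside (-3.97, adjusted p = 0.00799), and XLOC_006091, in Msrb3, 48.9 to 305 and 777 to 1674 (-2.93, adjusted p = 0.00848). Their hosts Rbpms and Msrb3 were also lower. XLOC_035673, in the lipid phosphatase gene Plpp3, was lower (-2.03, adjusted p = 0.0371), a call lost without any 1 library but olfactory bulb and heart, and Plpp3 itself was not called (-0.51, adjusted p = 0.555).

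Some lncRNAs were seen better by the junction probes. In this paragraph lncRNA figures are normalized values and junction figures are fragments, so no ratio can be taken between them. In the lncRNA libraries 1 fragment was worth 1.14 to 4.77, and in the junction libraries 0.289 to 1.60. The junction libraries were also deeper for every tissue, at 14,309,220 to 43,889,295 fragments against 8,930,236 to 21,113,109. Pantr1, beside the neural factor gene Pou3f3, had values of 33.3, 3.94, 36.5 and 11.1 in brain and none outside with the lncRNA probes, but 591, 56, 703 and 126 fragments in the brain libraries and 47 in kidney with the junction probes. Hnf1aos1 and Hnf4aos, opposite to liver and kidney factor genes, stayed under the floor here at 1.69 and 6.76 in kidney and 7.72 and 12.9 in liver, and had 404 and 352 junction fragments in kidney and 477 and 365 in liver. Mhrt, the lncRNA beside the cardiac myosin genes, had 90.6 in heart and 0 in the other 7 libraries here and 281 junction fragments in heart. Hoxd3os1 had 3.42 in the library labelled testes, against 134 junction fragments there and 66 in kidney.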

How the data were processed

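The authors aligned reads to GRCm38 with TopHat2, assembled transcripts with Cufflinks 2.2.1 guided by GENCODE M4 and normalized them with Cuffnorm 2.2.1. The deposited values are Cuffnorm's library-normalized signal per transcript, built on estimated fragments. Summed per gene model they were whole multiples of one step per library in 100% of low sums (tolerance 0.1 step), and fragments were recovered from these steps. Whether counting used strand is not given in the sources used here. Depth was 8,930,236 to 21,113,109 fragments. Intervals for counting error are not given, since the spread between tissues sets the error of each comparison. Libraries were grouped as brain or nonbrain from their titles, and the deposited columns of the 8 junction libraries were used only to compare the designs.

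Spike-ins were left out, models averaging a value of 10 or more over the 8 libraries were kept, and log2(value + 1) was fitted on all 28,798 models with limma 3.58.1 (R 4.3.3, moderated tests, Benjamini-Hochberg adjusted p under 0.05). A fold change on this scale understates the change of low models. The difference between the designs was fitted on each tissue's log2 difference. Single values were compared by exact permutation, over 70 assignments of the 8 libraries and over fewer where a library was left out. The fit was also run on simulated data whose added spread between tissues was set under that of the data. That run therefore does not measure the error of the calls made here. Models were matched to GENCODE M21 with pyranges 0.1.4, and microRNAs and promoters to RefSeq GRCm38.p6. Sequences of unannotated models were not used here, so motifs were sought in RefSeq promoters within 500 nt of a model's start. Work was done in Python 3.11.15 with pandas 2.3.3, NumPy 2.4.6, SciPy 1.17.1 and matplotlib 3.10.9.

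The gene models named were those of fixed lists, in each direction the 10 GENCODE noncoding genes and the 5 spliced and 3 single-exon models without a GENCODE gene that had the largest differences among called models whose groups did not overlap, and in each direction the 5 called models with the largest mean fragments among those with under 3 fragments in every junction library. MicroRNA hosts were added as a group. Members and lists were chosen with earlier results of these data known, so they are no independent support for a direction. Alternatives were other scalings, pseudocounts, floors and fits, each library left out, and, added after the data were seen, a pool step, shares without models listed at 0 in some libraries and detection at equal depth.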

Additional observations from a re-analysis of the deposited data

Results flagged for a closer look

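In 206 groups of 4 libraries, the value of 1 library was compared with the others of its group by the gap to its nearest neighbour divided by the range on the log2 scale, and 31 passed Dixon's critical value of 0.829. Chance alone passes about 1 group in 20, and a group with 3 libraries at 0 always gives a ratio of 1. Among brain libraries, whole brain was lowest for Kcnq1ot1 (0.870), Gm3764 (0.901), XLOC_020261 (0.841) and B830012L14Rik (0.882), cerebellum was lowest for XLOC_017405 (0.954), olfactory bulb was highest for Nespas (0.883) and cortex for Pantr2 (0.871). Among nonbrain libraries, heart was highest for Rmst (0.970), XLOC_006517 (0.882) and XLOC_039990 (0.957), kidney for Pantr2 (0.913), Lhx1os (0.861) and XLOC_036629 (0.924), liver for 1810008I18Rik (0.940) and the library labelled testes for 4631405K08Rik (0.834). The ratio was 1, because the other 3 libraries held no fragment, for Mir124a-1hg in kidney, Mhrt and C230004F18Rik in heart, and Gm6145, XLOC_040360, XLOC_011085 and Mir219a-2 in the library labelled testes. It was also 1 for Hoxb5os, Hoxaas3 and XLOC_039990 in whole brain, Wt1os and XLOC_046325 in cerebellum, 1010001N08Rik, XLOC_036629 and XLOC_012532 in cortex and BC024386 in olfactory bulb.

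The brain against nonbrain difference itself differed between the capture designs (limma on the log2 difference between designs per tissue, adjusted p under 0.05) being more positive with the lncRNA probes for 4315 gene models and more negative for 887.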

How the results depend on the processing

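With a mean value of at least 100 fewer models were tested, and 4287 were called (3335 higher, 952 lower), of them 599 lncRNA genes (445 higher) and 1809 without a GENCODE gene (1644 higher, 165 lower). Quantile normalization gave more lower calls, 4631 in all, 536 lncRNA genes and 1130 without a GENCODE gene. Models with a more negative difference in the lncRNA than in the junction design numbered 3482 after quantile normalization, 1430 with a pseudocount of 10 and 1433 without a floor, and the cause was not tested. For the calls between brain and nonbrain, median-of-ratios and total scaling, limma-voom, the trend fit, the spike-in mix as a term and the pool step stayed within 1.5 times, and for the difference between designs the trend fit did. Besides these and leaving out libraries, no alternative was run for the latter.

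Leaving out 1 library gave 839 (without cortex) to 1755 (without heart) lower calls over all models, 124 (without cortex) to 244 (without heart) for lncRNA genes, 197 (without cerebellum) to 321 (without heart) for models without a GENCODE gene, and 556 (without cortex) to 1147 (without whole brain) models with a more negative difference in the lncRNA design. Without cerebellum the lower calls over all models were 932 and the more negative differences 572, and without cortex 201 models without a GENCODE gene were lower. All calls ranged from 5809 to 8244, those of lncRNA genes from 761 to 1096 and those without a GENCODE gene from 2567 to 3534. The brain minus nonbrain difference in share of fragments ranged from -0.582 to 1.80 percentage points for lncRNA genes, negative without cortex (-0.451) and without kidney, from 9.08 to 16.8 for unannotated models and from -21.2 to -12.0 for coding ones, the last pair reaching p = 0.0286 (exact permutation test) without whole brain. Without the 4 models listed at 0 in some libraries these differences were 1.94, 12.97 and -17.8. Of the named models, 103 were tested, 83 were called, 48 were called under every alternative and 66 with every library left out, and none of the 83 changed sign. Those that did were not called: Tug1 (0.54 after quantile normalization), Firre (-0.70 to 0.054 over the libraries left out), H19 (-2.19 to 0.56, and 0.25 after the pool step), Airn (-0.26 to 1.29) and Mir99ahg (-0.64 to 0.16).

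No paired analysis was possible because each tissue is 1 library and no number in the labels ties a brain library to a nonbrain one. Each value rests on 1 library per tissue, and at 3 fragments the lowest detectable value ran from 3.42 to 14.3.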
